A study of Mus musculus with 8 samples.

Results

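The antiviral interferon-stimulated genes encode the effectors and sensors that a cell makes in response to interferon. A list of 38 such genes was taken by name, and 37 of them were found among the 23156 genes of the deposited table of ribosome footprints. The list was chosen with earlier results of these data known. Mx1 was not analysed here. Ribosome profiling sequences the stretches of mRNA that ribosomes shield from nuclease, so a footprint level reflects both the amount of an mRNA and how densely ribosomes occupy it. The libraries came from naive CD4+ T cells, the helper cells before their first contact with antigen, taken from C57BL/6 mice that were wild-type (WT) or lacked Mettl3 (KO). Mettl3 catalyses the addition of N6-methyladenosine, a common modification of mRNA. There were 2 footprint and 2 input RNA libraries for each genotype, and all cells had been held in cycloheximide, which stalls ribosomes, at 0.1 mg/ml for 1 min. Only the footprint values were analysed here, so mRNA level and translation cannot be told apart. The sources used here give neither the way Mettl3 was deleted nor the age of the mice. Nothing in the labels ties the libraries of a genotype to separate mice, so p-values rest on a spread that may be technical only.

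Type I interferons (the alpha and beta forms) signal through the kinases JAK1 and TYK2 to a complex that holds STAT2 and IRF9 and binds the interferon-stimulated response element (ISRE) of its target genes. Interferon gamma, a product of activated T cells and NK cells, signals through JAK1 and JAK2 and acts on genes with a gamma-activated site (GAS). Many antiviral genes respond to both kinds of interferon.

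Promoters are shown first, since these elements are what many of the genes are known to share. RefSeq promoters (GRCm38.p6, from 250 bases before to 50 bases after the start site) were matched by symbol for 29 of the 38 genes. The ISRE core (GAAA, any 2 bases, then GAAA) was searched on both strands, and the GAS core TTCNNNGAA, which reads alike on both strands, was searched as it stands. The ISRE core was found at 13 of the 29 genes (44.8%), against 3.99% of 27025 genes with a promoter of the same length. The GAS core was found at 8 of the 29 genes (27.6%), against 9.55% of all genes. At 3 genes both cores were present, and at Bst2 and Ifitm3 matches of both overlapped. The 160 bases before the start site are printed below, 5′ to 3′ on the strand of the gene, with ISRE cores in capitals. Isg15, Ifit3 and Oas1a are shown as genes with cores whose footprints rose in KO, Ddx60 and Rsad2 as genes with cores whose footprints were not past the threshold, and Ifit2 as a neighbour of Ifit3 with no core in the window.
Isg15 (chr4:156200819-156200978, minus strand): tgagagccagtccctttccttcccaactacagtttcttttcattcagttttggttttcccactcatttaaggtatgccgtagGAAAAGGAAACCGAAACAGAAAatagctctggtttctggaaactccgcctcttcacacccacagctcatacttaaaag
Ifit3 (chr19:34583369-34583528, plus strand): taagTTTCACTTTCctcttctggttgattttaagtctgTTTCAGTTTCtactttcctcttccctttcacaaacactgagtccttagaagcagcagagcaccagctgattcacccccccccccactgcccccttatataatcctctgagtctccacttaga
Oas1a (chr5:120907526-120907685, minus strand): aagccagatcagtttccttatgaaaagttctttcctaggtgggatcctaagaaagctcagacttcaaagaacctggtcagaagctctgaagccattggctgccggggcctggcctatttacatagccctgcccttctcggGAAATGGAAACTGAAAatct
Ddx60 (chr8:61927927-61928086, plus strand): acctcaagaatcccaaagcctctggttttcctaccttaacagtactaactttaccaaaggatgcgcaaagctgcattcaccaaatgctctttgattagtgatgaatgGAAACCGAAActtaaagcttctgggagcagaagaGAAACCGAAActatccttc
Rsad2 (chr12:26456453-26456612, minus strand): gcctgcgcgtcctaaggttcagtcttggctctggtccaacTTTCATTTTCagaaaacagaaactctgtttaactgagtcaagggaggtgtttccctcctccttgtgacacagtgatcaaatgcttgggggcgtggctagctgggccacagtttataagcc
Ifit2 (chr19:34550534-34550693, plus strand): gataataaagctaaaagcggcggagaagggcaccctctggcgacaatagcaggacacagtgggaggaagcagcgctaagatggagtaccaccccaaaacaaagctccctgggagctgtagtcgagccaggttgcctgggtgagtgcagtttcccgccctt

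**Figure D1:**
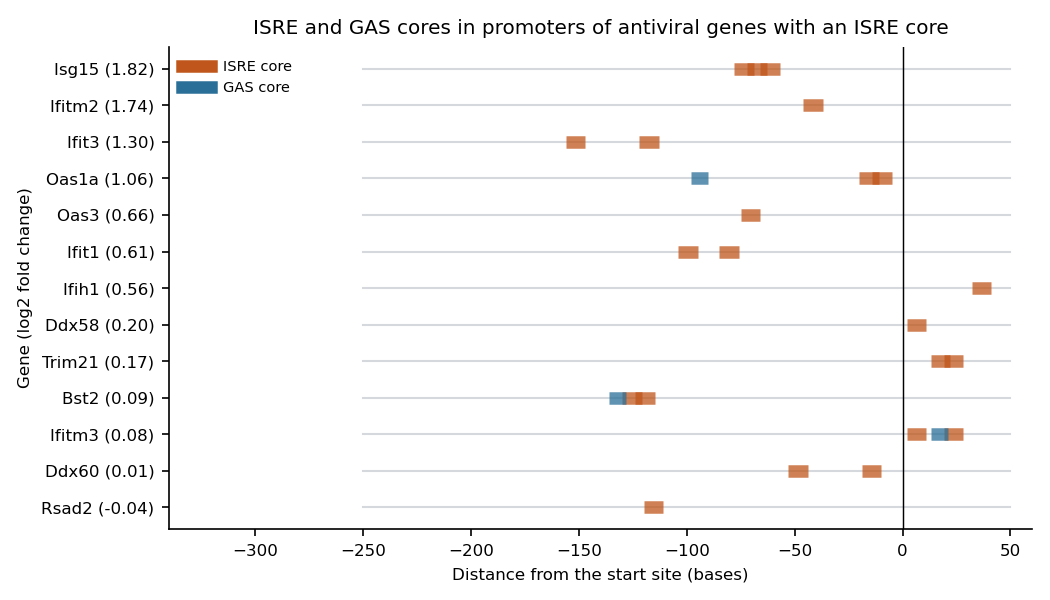
Positions of ISRE cores (orange) and GAS cores (blue) in the 300 bases of promoter of the 13 antiviral genes that hold an ISRE core, as distance from the start site in bases, ordered by log2 fold change (in brackets). Isg15 holds 3 overlapping cores and stands first, while Ddx60 and Rsad2 hold cores and stand last.

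Levels are in FPKM, reads per length of gene and per depth of library. Levels of different genes compare only roughly, since the length used is not stated and reads of close copies may have been split. Depth was judged from the value of 1 read in genes with 1 annotated transcript. It was about 5890000 and 3550000 reads in WT libraries 1 and 2. In KO libraries 1 and 2 it was about 5890000 and 2950000 reads. The estimate is rough, since 46.1% to 53.9% of low values in a library fell close to a whole number of reads. Footprints of Mettl3 stood at 24.5 and 21.1 FPKM in WT and at 2.44 and 3.32 FPKM in KO, so the targeted gene was low in both libraries labelled KO. Cd4, the defining coreceptor of these cells, stood at 82.0 to 101 FPKM over the 4 libraries, and Cd8a at no more than 0.551 FPKM. The 7 tested T cell markers summed to 498 and 575 FPKM in WT against 432 and 423 FPKM in KO, and 0 were called. At 5 of them (Cd3d, Cd3g, Cd5, Lat and Lck) both KO libraries lay below both WT libraries, as they did at 34.6% of all tested genes. Small RNA genes took 37.0% to 43.7% of summed FPKM in WT and 49.4% to 55.7% in KO. They were left out of the tests, and the counts with these genes kept are given beside the result.

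Of the 37 genes, 36 passed a filter of a mean of at least 1 FPKM over the 4 libraries and were tested. Rtp4 and Ifi44 had WT means below 1 FPKM and passed only through their KO values. A gene as low in WT that did not rise in KO would not have been tested. Ifitm1, a membrane protein that blocks virus entry, is listed at 0 in all 4 libraries. Footprints of 10 of the 36 tested genes were higher in KO and of 0 were lower (limma across 9272 genes, Benjamini-Hochberg adjusted p under 0.05). Among all tested genes, 1.56% were called higher and 0.658% lower. The list was chosen with earlier results of these data known, so shares of all genes set beside it are description only. The 10 genes were Isg15, Ifitm2, Oasl2, Rtp4, Ifit3, Zbp1, Dtx3l, Oas1a, Parp9 and Lgals3bp, at ratios of mean FPKM from 2.13 (Parp9) to 5.64 (Ifitm2). Over the 36 genes the median log2 fold change, KO minus WT on the scale of log2(FPKM + 1), was 0.57, against -0.10 for all tested genes. Both KO libraries lay above both WT libraries at 28 of the 36 genes, against 16.3% of all tested genes, and both lay below at 1, Ifit2, against 34.6%. In fits that left out a library and had 1 residual degree of freedom, fewer of the 36 were called. Those called without WT library 2 included Oas2, which is not among the 10. The count was 1 without WT library 1 (0.388% of all tested genes higher) and 3 without WT library 2 (0.399%). It was 0 without KO library 1 (0.259%) and 0 without KO library 2 (0.0108%). With no filter on low genes limma called 0 of the 36 and 0 of all genes, with small RNA genes kept 4 (0.596% of all genes higher), and without a variance trend 1 (0.507%). At an unadjusted p under 0.05, 21 of the 36 were higher, against 6.23% of all tested genes. With libraries centred on their medians, 12 were called higher and 0 lower (2.22% of all genes higher), and 30 had both KO libraries above both WT libraries, against 24.5% of all genes.

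**Figure D2:**
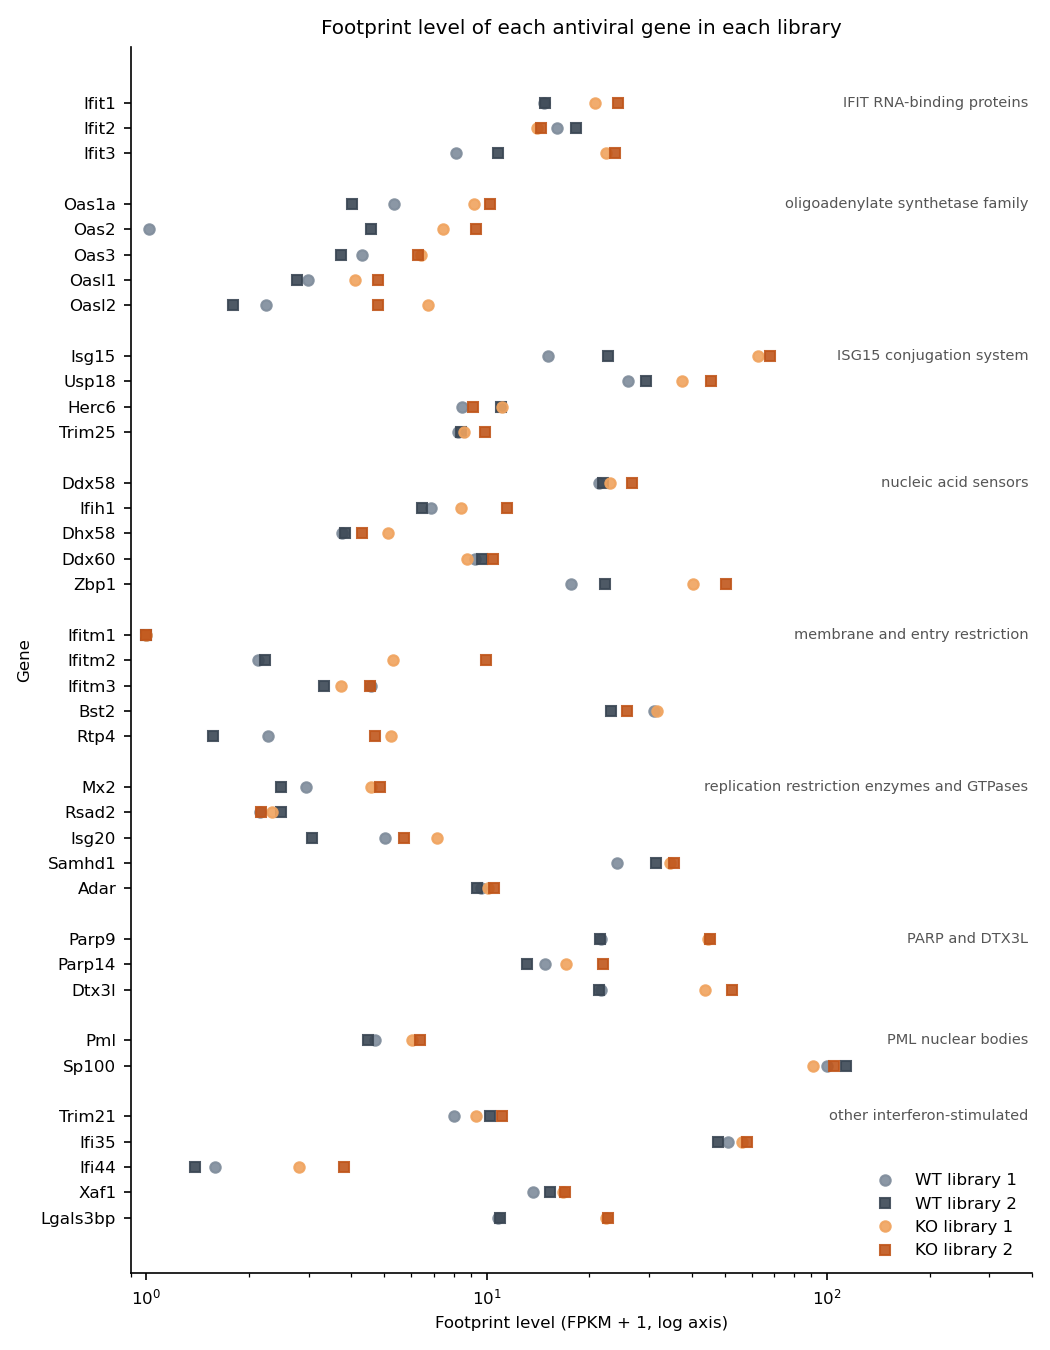
Footprint level (FPKM + 1, log axis) of each of the 37 antiviral genes in WT libraries 1 and 2 (grey) and KO libraries 1 and 2 (orange), grouped by role. For Isg15, Ifit3, Zbp1, Parp9, Dtx3l and Lgals3bp the pairs of libraries stand well apart, while Sp100, the most abundant gene, and Ddx60, Herc6 and Rsad2 have mixed libraries.

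The basal level differed widely between the genes. In WT, Sp100 was the most abundant at a mean of 106 FPKM, followed by Ifi35 (48.6 FPKM), Samhd1 (26.8 FPKM), Usp18 (26.7 FPKM) and Bst2 (26.1 FPKM). Samhd1, Usp18 and Bst2 did not differ beyond the spread of their WT libraries. At the low end, Ifitm2, Oasl2, Rtp4 and Ifi44 had WT means of 1.18, 1.03, 0.926 and 0.488 FPKM. In KO, Sp100 remained first (96.8 FPKM) and Isg15 moved from the tenth place to the second (64.4 FPKM). Summed over the 37 genes, levels were 468 and 499 FPKM in WT against 675 and 746 FPKM in KO.

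In the IFIT family of RNA-binding proteins, the 3 genes did not move alike. Ifit3 stood at 7.13 and 9.83 FPKM in WT and at 21.4 and 22.8 FPKM in KO. Its libraries did not overlap, and it rose by 1.30 on the log2 scale (SE 0.18, limma adjusted p = 0.0167). Ifit1 stood at 13.7 and 13.8 FPKM in WT and at 19.8 and 23.4 FPKM in KO, higher in both KO libraries but not past the threshold (0.61, SE 0.15, limma adjusted p = 0.0973). With libraries centred on their medians or scaled to their upper quartiles its adjusted p was 0.0435 and 0.0471. Ifit2 stood at 15.05 and 17.3 FPKM in WT and at 13.1 and 13.4 FPKM in KO, lower in both KO libraries (-0.27, 95% interval -0.62 to 0.08, limma adjusted p = 0.382). The ratio of Ifit3 to Ifit2 was 0.474 and 0.567 in WT against 1.63 and 1.70 in KO. All 3 genes lie on chromosome 19, where Ifit2 ends at 34576419 and Ifit3 starts at 34583531 (GENCODE M21, GRCm38). Of the 30-base stretches of Ifit3 transcripts, 62.5% are also found in Ifit3b, a close copy, so reads of these may have been split between the copies. Ifit3b, counted on its own, stood at 5.92 and 8.32 FPKM in WT and at 18.4 and 19.99 FPKM in KO, a rise of 1.33 (SE 0.19, limma adjusted p = 0.0168).

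The oligoadenylate synthetases make the messenger that activates RNase L on sensing double-stranded RNA, and the OASL proteins are relatives with a ubiquitin-like tail. Oas1a stood at 4.36 and 3.02 FPKM in WT and at 8.20 and 9.20 FPKM in KO. Both KO libraries were above both WT libraries, and the change was 1.06 (SE 0.20, limma adjusted p = 0.048). The call was close to the threshold and was lost with a pseudocount of 0.1 (limma adjusted p = 0.0516) or 0.5 (0.0505). Its transcripts share 69.3% of their 30-base stretches with Oas1g, so the value of either copy is uncertain. Oasl2 stood at 1.25 and 0.800 FPKM in WT and at 5.74 and 3.80 FPKM in KO. It was low in both WT libraries and rose by 1.5 (SE 0.25, limma adjusted p = 0.0356). Its neighbour Oasl1, which represses translation of Irf7, had 1.88 FPKM in WT against 3.45 FPKM in KO (limma adjusted p = 0.185). Oas3 had 3.02 FPKM in WT against 5.35 FPKM in KO (limma adjusted p = 0.127). Oas2 is listed at 0.0179 FPKM in WT library 1, less than about 1 read, against 3.56 FPKM in WT library 2 and 6.45 and 8.33 FPKM in KO. The value in WT library 1 decides its fold change, which was 1.95 (limma adjusted p = 0.158), 0.87 without that library and 3.03 without WT library 2 (limma adjusted p = 0.0219). At each of the 5 genes both KO libraries lay above both WT libraries, as they did at 16.3% of all tested genes.

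ISG15 is a ubiquitin-like protein that is joined to other proteins in interferon-treated cells, and the list holds further genes of this system. Isg15 had the lowest adjusted p among the antiviral genes. It stood at 14.1 and 21.6 FPKM in WT and at 61.7 and 67.0 FPKM in KO. These levels do not overlap and correspond to about 63, 58, 270 and 150 reads. The mean rose from 17.9 ± 5.33 to 64.4 ± 3.76 FPKM (SD, n = 2 each), or by 1.82 on the log2 scale (SE 0.20, limma adjusted p = 0.009), and the call was kept without WT library 1 (0.028) or WT library 2 (0.0217). It was lost without KO library 1 (0.085), without KO library 2 (0.168) and with no filter on low genes (0.211). Usp18, the protease that removes ISG15 and also restrains the type I receptor, stood at 24.9 and 28.4 FPKM in WT and at 36.6 and 44.7 FPKM in KO. It was higher in both KO libraries without passing the threshold (0.59, SE 0.15, limma adjusted p = 0.109), and its adjusted p was 0.0461 with libraries centred on their medians. The ratio of Isg15 to Usp18 was 0.566 and 0.761 in WT against 1.69 and 1.498 in KO. Herc6, the ligase that joins ISG15 to its targets in mice, had 8.75 FPKM in WT against 9.12 FPKM in KO, with libraries mixed. Trim25, a ligase that modifies the sensor RIG-I, had 7.30 and 8.24 FPKM (log2 fold change 0.15, 95% interval -0.23 to 0.53).

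Of the 5 sensors of foreign nucleic acid, Zbp1, which senses nucleic acid in the Z form and can start necroptosis, was the 1 that passed the threshold. It stood at 16.7 and 21.2 FPKM in WT and at 39.4 and 49.3 FPKM in KO. The libraries did not overlap, and the log2 fold change was 1.18 (SE 0.17, limma adjusted p = 0.0191). The cytosolic RNA helicase sensors had smaller differences. Ddx58, which encodes RIG-I, stood at 20.3 and 20.9 FPKM in WT and at 22.0 and 25.8 FPKM in KO (0.20, 95% interval -0.14 to 0.53, limma adjusted p = 0.51). Ifih1, which encodes MDA5, stood at 5.84 and 5.45 FPKM in WT and at 7.42 and 10.4 FPKM in KO (0.56, 95% interval 0.10 to 1.03, limma adjusted p = 0.196). Both genes were higher in both KO libraries. Dhx58, which encodes the regulatory helicase LGP2, had 2.79 FPKM in WT against 3.73 FPKM in KO. Ddx60, a further helicase of this response, had 8.46 FPKM in WT against 8.58 FPKM in KO with mixed libraries (0.01, 95% interval -0.38 to 0.41), although its promoter holds a pair of ISRE cores.

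The proteins that act on membranes and virus entry included the highest ratio. Ifitm2, one of the small membrane proteins that hinder fusion of viruses in endosomes, stood at 1.13 and 1.23 FPKM in WT and at 4.31 and 8.96 FPKM in KO. It was low in both WT libraries and rose by 1.74 (SE 0.31, limma adjusted p = 0.0401). With a pseudocount of 5 the change was 0.88 and the call was lost (limma adjusted p = 0.0596). The call rests on few reads, about 4.3 and 2.9 in WT and about 17 in each KO library, and 56.1% of its 30-base stretches are found in other genes. Ifitm3, the best studied member, stood at 3.58 and 2.34 FPKM in WT and at 2.74 and 3.56 FPKM in KO, with overlapping libraries. Rtp4, an interferon-inducible chaperone-like protein, stood at 1.28 and 0.571 FPKM in WT and at 4.23 and 3.71 FPKM in KO. Both WT libraries were low, and the rise was 1.39 (SE 0.26, limma adjusted p = 0.0457, lost with a pseudocount of 0.1 or 0.5). The WT mean of Rtp4 was below the filter of 1 FPKM, which the gene passed through its KO values. Bst2, which encodes tetherin, the protein that holds budding virus at the cell surface, stood at 29.99 and 22.2 FPKM in WT and at 30.6 and 24.8 FPKM in KO. Its libraries overlapped, with replicate 1 the higher in both genotypes.

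No gene of the group of enzymes and GTPases that block virus replication passed the threshold. Samhd1, which depletes the nucleotides needed for reverse transcription, was the most abundant of them. It stood at 23.2 and 30.4 FPKM in WT and at 33.5 and 34.4 FPKM in KO (0.34, 95% interval -0.03 to 0.72, limma adjusted p = 0.309). Adar, which edits adenosine to inosine in double-stranded RNA, stood at 8.62 and 8.34 FPKM in WT and at 9.06 and 9.53 FPKM in KO (0.12, 95% interval -0.24 to 0.48). Both were above WT in both KO libraries, by less than the test can call. The exonuclease gene Isg20 had 3.05 FPKM in WT against 5.42 FPKM in KO (limma adjusted p = 0.234). Mx2, which the annotation gives as a polymorphic pseudogene in this reference strain, had 1.71 FPKM in WT against 3.71 FPKM in KO (limma adjusted p = 0.109). Rsad2, which encodes viperin, was near the filter in every library, from 1.16 to 1.49 FPKM (-0.04, 95% interval -0.62 to 0.54).

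Parp9 and Dtx3l encode partners of a complex that joins ubiquitin and ADP-ribose to its targets, and they lie head to head on chromosome 16 with overlapping exons on opposite strands. Parp9 stood at 20.7 and 20.6 FPKM in WT and at 43.7 and 44.3 FPKM in KO. Dtx3l stood at 20.7 and 20.4 FPKM in WT and at 42.8 and 51.7 FPKM in KO. Neither gene had overlapping libraries, and their levels were nearly equal, with ratios of Parp9 to Dtx3l of 1.00 and 1.01 in WT and 1.02 and 0.857 in KO. The log2 fold changes were 1.06 (SE 0.13, limma adjusted p = 0.0117) for Parp9 and 1.16 (SE 0.14, limma adjusted p = 0.0137) for Dtx3l. Parp14, a neighbouring ADP-ribosyltransferase gene, stood at 13.8 and 12.2 FPKM in WT and at 16.1 and 21.0 FPKM in KO. It was higher in both KO libraries, by 0.47 (95% interval 0.07 to 0.88, limma adjusted p = 0.21).

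The genes of PML nuclear bodies, which repress viral genomes in the nucleus, did not pass the threshold. Pml stood at 3.70 and 3.47 FPKM in WT and at 5.03 and 5.36 FPKM in KO (0.44, limma adjusted p = 0.248). Sp100 stood at 99.2 and 112 FPKM in WT and at 89.8 and 104 FPKM in KO, with overlapping libraries (-0.13, 95% interval -0.44 to 0.18). Of the remaining genes, Lgals3bp, a secreted glycoprotein that binds galectin 3, stood at 9.83 and 9.95 FPKM in WT and at 21.4 and 21.6 FPKM in KO. Its replicates were close in both genotypes, and it rose by 1.05 (SE 0.14, limma adjusted p = 0.0151). Ifi35 stood at 50.3 and 46.8 FPKM in WT and at 55.1 and 57.0 FPKM in KO (0.20, 95% interval -0.08 to 0.49). Xaf1, an antagonist of the caspase inhibitor XIAP, stood at 12.6 and 14.3 FPKM in WT and at 15.7 and 16.0 FPKM in KO (0.22, 95% interval -0.12 to 0.57). Both of these genes were higher in both KO libraries without passing the threshold. Trim21, the intracellular antibody receptor, had 8.12 FPKM in WT against 9.20 FPKM in KO, with overlapping libraries. Ifi44 was at 0.590 and 0.386 FPKM in WT and at 1.81 and 2.82 FPKM in KO, a ratio of means of 4.74 that was not past the threshold (limma adjusted p = 0.0934).

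**Figure D3:**
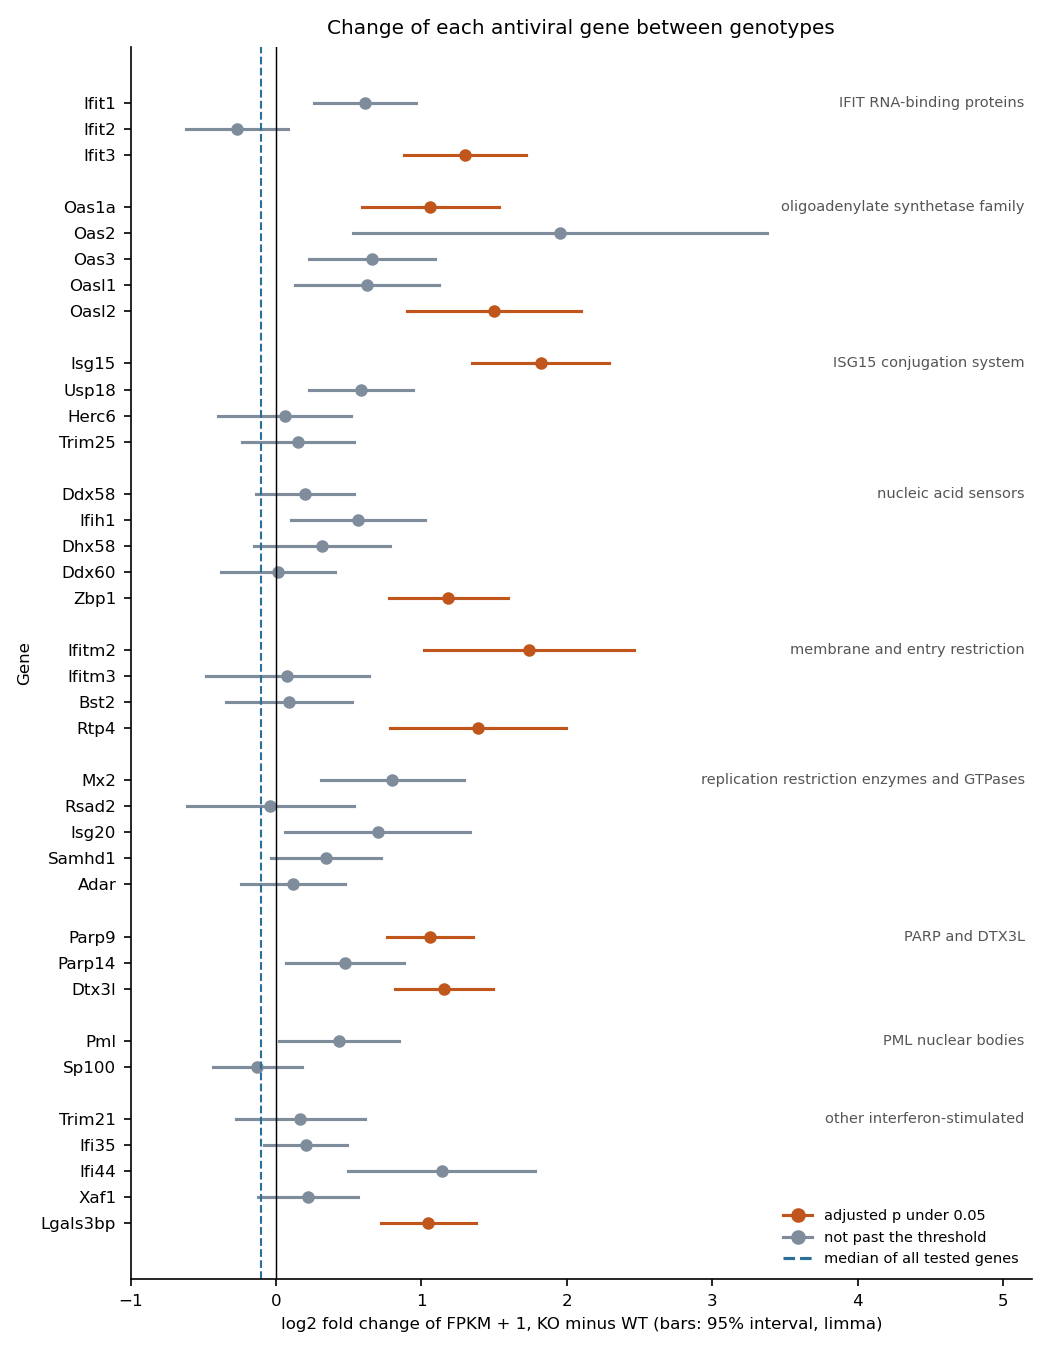
Log2 fold change of FPKM + 1 (KO minus WT, points) with its 95% interval from limma (bars) for the 36 tested antiviral genes by role. The 10 genes past the threshold are in orange, from 1.05 for Lgals3bp to 1.82 for Isg15, and the dashed line marks the median of all tested genes at -0.10.

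**Figure D4:**
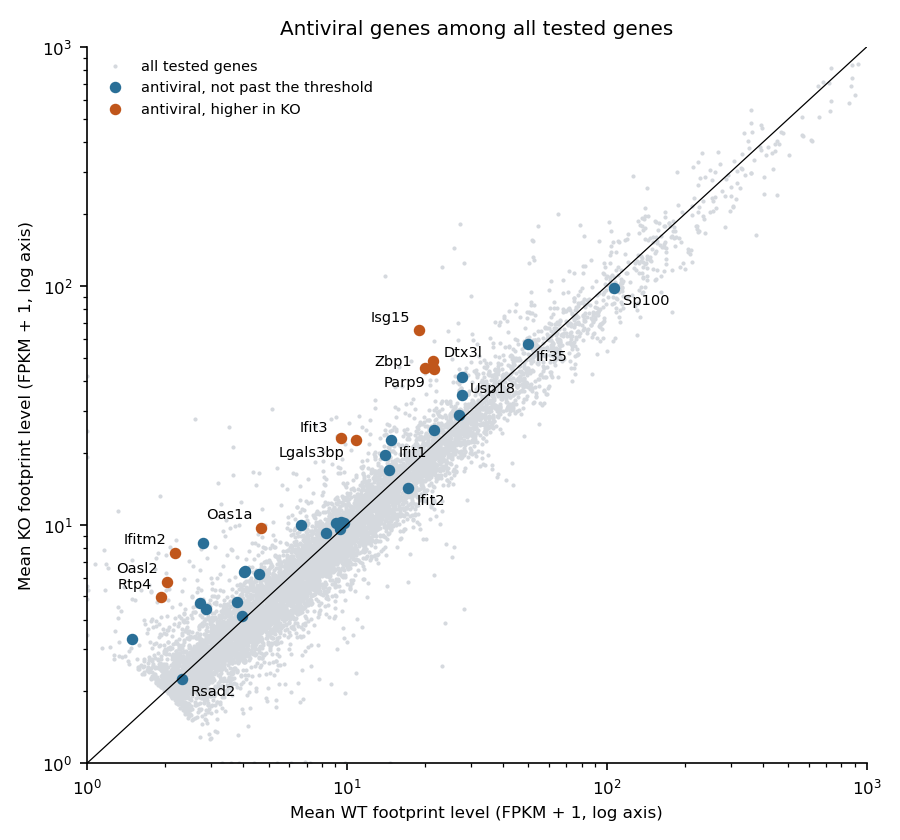
Mean KO against mean WT footprint level (FPKM + 1, log axes that end at 1000) for all tested genes (grey) and the antiviral genes past the threshold (orange) or not (blue). The orange genes lie above the diagonal from the low end (Rtp4, Oasl2) to Isg15, while the abundant Sp100 and Ifi35 lie near it.

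Called genes were found both with and without an ISRE core. The called genes Parp9, Zbp1 and Rtp4 had no matched promoter and are not in the splits that follow. Of 13 tested genes with the core, 4 were called higher (Isg15, Ifitm2, Ifit3 and Oas1a), with a median log2 fold change of 0.56 and a range from -0.04 to 1.82. Of 15 tested genes whose matched promoter lacks it, 3 were called higher (Oasl2, Dtx3l and Lgals3bp), with a median of 0.34 and a range from -0.27 to 1.5. For the GAS core, 1 of 8 genes with it and 6 of 20 without it were called higher, with medians of 0.16 and 0.59. These splits are descriptions with no test, and a window without a match says only that these letters are not in it.

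Other genes of the interferon pathway were counted in lists chosen beside the antiviral genes. These lists too were chosen with earlier results of these data known. For comparison, 1.56% of all tested genes were called higher and 0.658% lower. Of 20 interferon genes, 1 passed the filter. This was Ifng, at 2.22 and 3.10 FPKM in WT and at 10.8 and 19.5 FPKM in KO (2.10, SE 0.28, limma adjusted p = 0.0151). Ifnb1 is listed at 0 in all 4 libraries, and Ifnz, at no more than 0.185 FPKM, was the 1 type I gene listed above 0 in every library. Of the genes of the receptors and of JAK-STAT signalling, 0 were called lower. Stat2 stood at 3.96 and 5.35 FPKM in WT and at 13.0 and 14.2 FPKM in KO (1.38, SE 0.18, limma adjusted p = 0.0151). Jak1, an abundant kinase of the list, had 146 FPKM in WT against 131 FPKM in KO and was not past the threshold.

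Of 13 tested adaptors and interferon regulatory factors, Irf1 (101 to 183 FPKM, limma adjusted p = 0.0146) and Irf7 (8.73 to 15.7 FPKM, limma adjusted p = 0.0469) were called higher and 0 genes lower. Irf3, which is present before induction, had 43.0 FPKM in WT against 38.2 FPKM in KO. Of 31 other tested type I interferon-stimulated genes, 6 were called higher and 0 lower, against 1.56% and 0.658% of all tested genes. The median log2 fold change of the 31 genes was 0.37. Besides Ifit3b, the calls of lowest p in that list were Ifit1bl1 (29.0 to 89.3 FPKM), Ifi47 (51.2 to 130 FPKM) and Ccl5 (1.76 to 6.89 FPKM). Its most abundant genes, Shisa5 (652 to 508 FPKM) and Ifi27l2a (348 to 403 FPKM), did not pass the threshold. Of the 14 GTPase genes known for induction by interferon gamma, 14 were called higher, against 1.56% of all tested genes. Their log2 fold changes ran from 0.87 to 2.95, with a median of 1.47. Promoters were matched for 9 of them, with the ISRE core at 9 and the GAS core at 6. Iigp1 (13.0 to 108 FPKM), Gbp2 (22.2 to 119 FPKM), Igtp (27.2 to 123 FPKM) and the near-identical Tgtp1 and Tgtp2 (51.0 to 154 FPKM and 50.6 to 154 FPKM) had the lowest p in the list. With 1 library left out, fewer of the 14 were called. With no variance trend 6 were called, against 0.507% of all tested genes higher. With no filter on low genes 0 were called, as were 0 of all genes. The antiviral genes had a lower share of calls (27.8% of those tested), and the difference between the lists was not tested. Many GTPase genes have close copies or overlapping exons among which reads could be split.

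**Figure D5:**
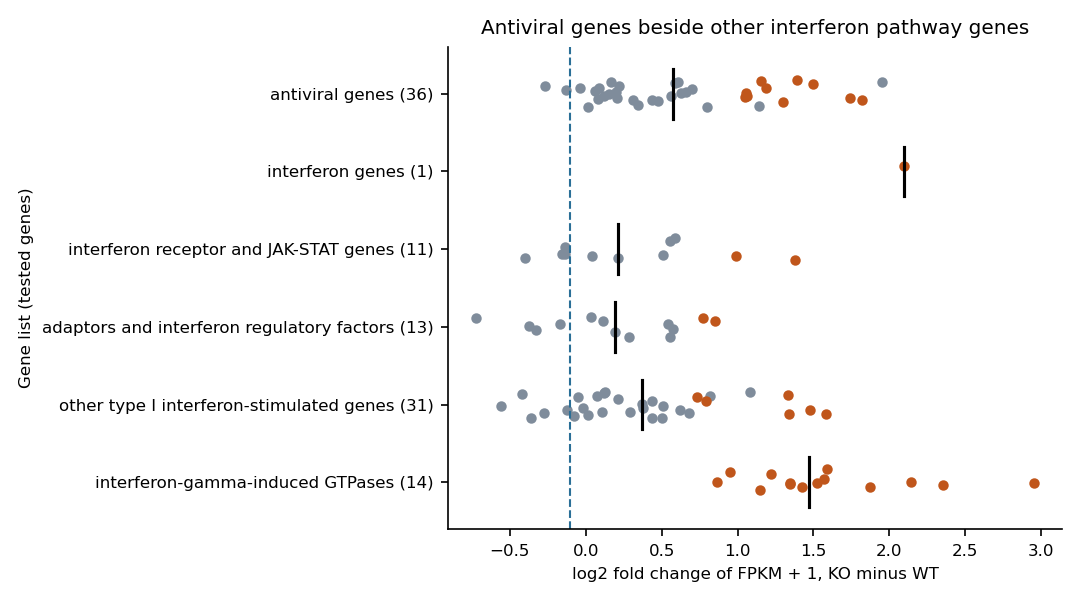
Log2 fold change of FPKM + 1 (KO minus WT) of each tested gene in the antiviral list and in 5 other interferon pathway lists, with genes past the threshold in orange, list medians as black bars and the median of all tested genes as a dashed line. All 14 GTPase genes are orange, against 10 of the 36 antiviral genes.

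Genes of other cell types and states were read in the same libraries. Of 7 tested markers of activated and effector T cells, 5 were called higher in KO and 0 lower, against 1.56% and 0.658% of all tested genes. The 5 were Ifng, Gzmb (0.321 to 10.4 FPKM), Tbx21, Cxcr3 and Icos. Gzmb and Tbx21 had WT means below 1 FPKM and passed the filter only through their KO values. Cd44 (3.07 and 3.54 FPKM) and Cd69 (179 and 186 FPKM) were not past the threshold. The summed level of the 8 markers was 193 and 201 FPKM in WT against 231 and 270 FPKM in KO, and Il2ra was below 1 FPKM in every library. In these bulk samples, more cells of a type and more RNA per cell cannot be told apart. Of 8 B cell markers, 6 were tested and 0 called, and the sum of the 8 was 108 and 67.5 FPKM in WT against 39.3 and 100 FPKM in KO. The 11 markers of monocytes, macrophages and neutrophils summed to 54.9 to 64.1 FPKM and the 6 of NK cells to 5.40 to 6.82 FPKM over the 4 libraries. Of these, 5 and 2 were tested and 0 called. S100a9, Ncr1 and Pax5, which define neutrophils, NK cells and B cells, are listed at 0 in all 4 libraries. Of 8 markers of dendritic and plasmacytoid cells, which include Bst2, 3 were tested and 0 called (29.4 to 38.2 FPKM summed over the 8). The part of these cell types and states in the levels of the antiviral genes was not tested.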

How the data were processed

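Ribosome footprints of naive CD4+ T cells were compared between 2 WT and 2 Mettl3 KO libraries, grouped by their titles. Libraries had been amplified for 9 PCR cycles, per the labels' protocols. The deposited values are FPKM made by the authors, 1 column per library, per the file headers. TopHat, Cuffdiff and the build mm10 (GRCm38) are named in the submitters' processing notes, with no versions. The sources used here do not state the annotation, the use of strand or how multiply matching reads were treated.

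The members and lists were chosen with earlier results of these data known. After 1210 small RNA genes were removed by symbol, the 9272 genes averaging 1 FPKM or more were fitted as log2(FPKM + 1) by limma (version 3.58.1, R version 4.3.3, moderated two-sided test, mean-dependent trend), with Benjamini-Hochberg adjustment over all of them and a threshold of 0.05. This scale understates the change of low genes. An exact permutation test of 2 against 2 cannot go below 0.333 and was not used. Depth was estimated from FPKM times transcript length, so reads are approximate, and counting error is not included in the SD. Coordinates, gene types and 30-base stretches come from GENCODE M21 (22629 symbols matched), promoters from RefSeq. The fit was tested in 10 simulations with 200 changed genes of at least 5 FPKM. It recovered 83.8% of 2-fold and 99.6% of 4-fold changes, and called 17.7 unchanged genes per simulation. Values in each library were given for called members and the 2 most abundant of each role, and for Ifit2, Ifih1, Ifitm3, Parp14, Xaf1 and Ifi44 after their values were seen. A gene that the rule names is not reported here. Outside the members, the rule named Mettl3 and, in each list, up to 4 called genes by p and the 2 of highest mean. Python 3.11.15, pandas 2.3.3 and matplotlib 3.10.9 were used. Alternatives changed the pseudocount, filter, scaling, small RNA genes, trend, weights, gene set, replicate block and each library. Those without exon overlap or shared sequence were added after the data were seen.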

Additional observations from a re-analysis of the deposited data

How the results depend on the processing

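The count of 10 antiviral genes called higher was between 7 and 12 under several settings. These were pseudocounts of 0.1, 0.5 and 5, a filter at 5 FPKM, centred or upper quartile scaling and array weights. A fit to protein-coding genes, a fit without exon overlaps and genes with little shared sequence also fell in this range. The genes tested differed between settings. At the filter of 5 FPKM, 7 of 23 were called, against 2.79% of all genes. With centred libraries it was 12 of 36, against 2.22%. The count was 0 with no filter (all genes 0, interferon pathway genes 0 in place of 25), 4 with small RNA genes kept (all genes 83, pathway 15) and 1 with no variance trend (all genes 68, pathway 8). All genes called numbered 206, of which 145 (70.4%) were higher, and 206 of 256 (80.5%) with centred libraries. With 1 library left out, calls numbered 0 to 3 among antiviral genes, 1 to 57 among all and 0 to 10 among pathway genes, and antiviral genes with KO above WT 30 to 31, against 21.4% to 32.7% of all genes, since groups of 1 library overlap less. Such fits have fewer residual degrees of freedom. The median of the antiviral genes, 0.57, was 0.37 with a pseudocount of 5, 0.34 in 23 genes of at least 5 FPKM, 0.67 with centred libraries and 0.44 to 0.65 with 1 library left out. At the filter of 5 FPKM, 17 of 23 genes had KO above WT, against 17.5% of all genes. Pathway calls were 15 among genes without exon overlap, which leaves 49 of 70. Mettl3 (-2.62) had an adjusted p of 0.166 with no filter, at the same -2.62, and -2.79 to -2.46 with 1 library left out, with 0.0509 without KO library 2. The cause of these moves was not tested where fewer genes or libraries do not give it. Of 36 tested antiviral genes, 6 changed direction in some setting, all uncalled. Rsad2 (-0.04) turned to 0.0559 with centred libraries and 0.0131 with upper quartile scaling, and with 1 library left out ranged from -0.14 to 0.062. In such fits Herc6 ranged from -0.13 to 0.25, Ddx60 from -0.12 to 0.14, Ifitm3 from -0.15 to 0.31, Bst2 from -0.12 to 0.30 and Trim21 from -0.0085 to 0.34. Replicates share only a number in their titles, as the labels name no shared batch. The column headers name WT libraries 1 and 2 as WT3 and WT4, and KO libraries 1 and 2 as KO1 and KO2. With the replicate block 8 antiviral genes (Oas1a and Rtp4 lost), 170 of all genes and 22 pathway genes were called, and the deviations of same-numbered libraries correlated at -0.09 across genes. Low genes such as Ifitm2, Rtp4 and Ifi44 rest on few reads in the shallower replicate 2 libraries.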
